A study of Mus musculus with 2 samples.

Results

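The axon guidance families examined here are the ephrins and their Eph receptors, the semaphorins with their plexin and neuropilin receptors, the Slits with their Robo receptors, and the netrins with their Unc5 receptors. Members were selected by a pattern on the gene symbol, and 68 of the 24421 rows of the RNA-Seq count table matched, 35 ligands and 33 receptors. The table holds 1 library of primary chondrocytes, digested out of rib cartilage of newborn mice with collagenase and kept to 2 passages at most, and 1 library of dermal fibroblasts, also primary, from dorsal skin of the same age. The labels name no strain, sex, genotype or treatment for either, and nothing says how many animals were pooled. The study set dermal fibroblasts beside chondrocytes to find genes with higher expression in chondrocytes. It used them to narrow the candidate transcription factors for *Sox9* enhancers. The libraries held 18788599 counts for chondrocytes and 17563724 counts for dermal fibroblasts. With 1 library a cell type there is no replicate check on any difference and no p-value. The 95% Clopper-Pearson interval printed in parentheses after a fold covers counting error only.

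These families were named for steering axons, but they act in many tissues that have no axons. Ephrins are tethered to the membrane, by a lipid anchor in the A class and a transmembrane domain in the B class, and their Eph receptors are tyrosine kinases, so that signaling needs contact between cells and can run into both of them. Semaphorins signal through plexins. The secreted class 3 semaphorins mostly need a neuropilin as a co-receptor, whereas the other vertebrate classes stay on the membrane. Slits are large secreted proteins that repel cells through Robo receptors. Netrins are laminin-related secreted proteins whose repulsive receptors are the Unc5 proteins. In the skeleton, semaphorins and ephrins are known for signals among bone cells, nerves and invading vessels, and mature cartilage itself has neither vessels nor nerves.

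The labels were checked against markers. All 11 chondrocyte markers in the table were over 2-fold higher in chondrocytes, and *Col2a1*, *Matn1* and *Lect1* were at 0 in dermal fibroblasts. Of 12 dermal fibroblast markers, 11 were over 2-fold higher in dermal fibroblasts and 1 was within 2-fold. Reads of markers of other cell types were present in both libraries and were uneven between them. Summed counts in chondrocytes and dermal fibroblasts were 289 and 5119 for 10 keratinocyte markers, 647 and 3091 for 9 Schwann cell markers, 175 and 1139 for 6 melanocyte markers, 497 and 984 for 10 endothelial markers, and 1225 and 2423 for 10 macrophage markers. For 11 skeletal muscle markers they were 35389 and 25387, for 8 osteoblast markers 2372 and 968, and for 8 neuron markers 300 and 545. Of the muscle markers, 6 were over 2-fold higher in chondrocytes, 5 were within 2-fold and 0 were higher in dermal fibroblasts. Among the 6 were *Pax7* (120 and 4 counts) and *Myod1* (2328 and 496). For 7 pericyte markers the sums were 12861 and 5124, of which *Cspg4* held 10824 and 2976. Of these 7, 1 was over 2-fold higher in chondrocytes and 3 in dermal fibroblasts. The melanocyte genes *Dct* and *Tyrp1* were at 0 in chondrocytes, with 238 and 149 counts in dermal fibroblasts. The osteoblast gene *Bglap* and the neuronal gene *Snap25* were at 0 in dermal fibroblasts, with only 6 and 1 counts in chondrocytes. The neuronal gene *Elavl3* was at 0 in both. The part of these cells in the folds of the guidance genes was not tested.

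The chondrocyte and dermal fibroblast libraries differed in the RNA level of some guidance receptors and ligands, and the differences ran in both directions. The receptors *Unc5c*, *Epha2* and *Plxnb1* and the secreted semaphorin *Sema3e* were between 7.79-fold and 28.5-fold higher in chondrocytes. The ligands *Ntn1*, *Slit3*, *Slit2* and *Sema5a* and the receptors *Robo2* and *Plxnb3* were between 5.5-fold and 28.0-fold higher in dermal fibroblasts. More than 3 counts in at least 1 library were found for 65 of the 68 members, and the remaining 3 (*Epha6*, *Epha10* and *Ntn5*) had at most 2 counts. After scaling by TMM, a fold over 2 toward chondrocytes was found for 10 of the 65 members (15.4%), and a fold over 2 toward dermal fibroblasts for 17 (26.2%), whereas 38 lay within 2-fold. Over all 15616 genes with more than 3 counts, 12.1% passed toward chondrocytes and 15.8% toward dermal fibroblasts. With at least 100 counts in a library, 8 of 51 members passed toward chondrocytes and 14 toward dermal fibroblasts, against 8.79% and 13.3% of the 11162 genes with that many counts. With total counts as the scaling, 7 members passed toward chondrocytes and 21 toward dermal fibroblasts. A lower value in a bulk library can mean fewer cells of a type or less RNA in each cell, and these cannot be told apart here.

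**Figure D1:**
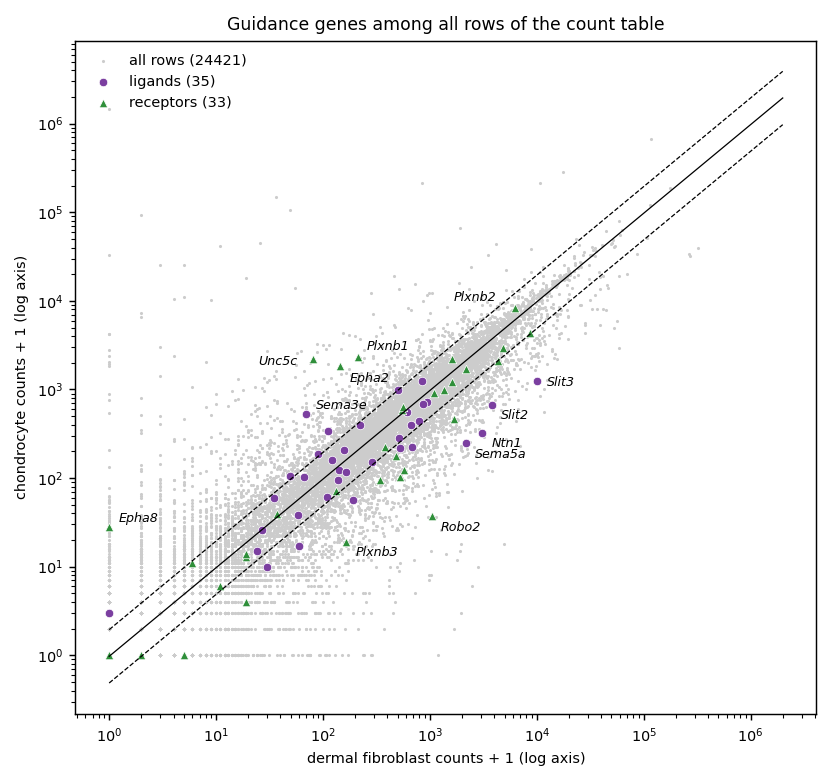
Counts plus 1 in chondrocytes (y axis) against dermal fibroblasts (x axis), both on log axes, for all 24421 rows (grey), the 35 ligands (circles) and the 33 receptors (triangles). The solid line marks equal TMM-scaled counts and the dashed lines 2-fold. *Unc5c*, *Epha2*, *Plxnb1* and *Sema3e* lie above the band, and *Slit3*, *Slit2*, *Ntn1*, *Sema5a*, *Robo2* and *Plxnb3* lie below it.

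The bases upstream of the transcription start are shown for the 4 members with the largest folds toward chondrocytes among those with at least 100 counts. They are also shown for the 2 ligands with the largest folds toward dermal fibroblasts among those in the RefSeq promoter table. The counts are per gene symbol, so they do not separate start sites or measure the output of a single promoter. Each run is the 250 bases before the RefSeq start in GRCm38.p6, 5′ to 3′ on the strand of the gene, which is the plus strand in all 6, with CpG dinucleotides in capitals. The start used for *Plxnb1* lies inside the outermost bounds of the gene. They lie at chr3:141465314-141465563 for *Unc5c*, chr4:141300971-141301220 for *Epha2*, chr9:109095186-109095435 for *Plxnb1*, chr5:14025026-14025275 for *Sema3e*, chr11:35121206-35121455 for *Slit3* and chr15:32244563-32244812 for *Sema5a*.
Unc5c: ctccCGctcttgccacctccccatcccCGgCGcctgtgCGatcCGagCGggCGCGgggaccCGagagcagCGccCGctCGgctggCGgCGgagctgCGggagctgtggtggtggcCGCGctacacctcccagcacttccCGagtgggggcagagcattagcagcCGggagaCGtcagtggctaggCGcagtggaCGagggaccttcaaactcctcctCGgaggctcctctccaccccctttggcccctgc
Epha2: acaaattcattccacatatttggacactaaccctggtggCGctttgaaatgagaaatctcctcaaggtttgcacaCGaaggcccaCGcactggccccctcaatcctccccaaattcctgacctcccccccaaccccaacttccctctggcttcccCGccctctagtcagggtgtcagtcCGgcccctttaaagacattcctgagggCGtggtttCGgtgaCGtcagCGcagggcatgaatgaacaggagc
Plxnb1: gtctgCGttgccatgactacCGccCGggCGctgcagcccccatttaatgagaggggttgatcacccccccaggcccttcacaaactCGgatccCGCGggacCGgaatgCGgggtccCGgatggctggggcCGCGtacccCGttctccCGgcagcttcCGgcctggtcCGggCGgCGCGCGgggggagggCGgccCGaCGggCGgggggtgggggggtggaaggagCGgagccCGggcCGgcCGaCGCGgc
Sema3e: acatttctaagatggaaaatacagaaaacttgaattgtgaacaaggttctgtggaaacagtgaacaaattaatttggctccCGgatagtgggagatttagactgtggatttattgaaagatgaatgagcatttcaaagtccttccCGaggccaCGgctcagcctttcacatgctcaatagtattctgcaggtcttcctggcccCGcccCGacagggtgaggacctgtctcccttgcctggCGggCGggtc
Slit3: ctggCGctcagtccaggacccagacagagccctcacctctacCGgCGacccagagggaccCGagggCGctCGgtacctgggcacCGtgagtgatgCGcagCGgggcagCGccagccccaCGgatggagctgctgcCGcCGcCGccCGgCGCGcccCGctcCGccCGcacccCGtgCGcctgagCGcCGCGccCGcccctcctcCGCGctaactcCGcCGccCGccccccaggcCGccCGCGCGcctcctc
Sema5a: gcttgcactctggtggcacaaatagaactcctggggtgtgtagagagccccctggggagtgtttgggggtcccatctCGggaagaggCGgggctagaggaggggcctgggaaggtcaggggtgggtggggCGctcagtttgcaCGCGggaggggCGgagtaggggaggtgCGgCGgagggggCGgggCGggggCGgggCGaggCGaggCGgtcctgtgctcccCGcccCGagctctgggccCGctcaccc

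CpG content differed among these promoters without following the direction of the fold. *Plxnb1* held 30 CpG and *Unc5c* 23, whereas *Epha2* held 9 and *Sema3e* 7. On the dermal fibroblast side, *Slit3* held 35 and *Sema5a* 17. The median was 6 over all 32851 RefSeq promoters of this length and 15 over the 75 promoters of the 59 members that the RefSeq table holds. These windows were also searched on both strands for a SOX core (ACAATG or ACAAAG) and for the PITX core (TAATCC), as the study concerns *Sox9* and *Pitx1*. None of the 6 printed windows holds either. The SOX core occurred in 0 of 11 promoters (9 genes) of members over 2-fold higher in chondrocytes. It occurred in 4 of 15 (13 genes) of members over 2-fold higher in dermal fibroblasts. Over all members it occurred in 12 of 75 promoters, and over all promoters in 25.2%. In the same order, the PITX core occurred in 1 of 11, 0 of 15, 2 of 75 and 6.25%. These counts describe letters in a short window and say nothing of binding there or elsewhere.

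Of the netrin family, *Unc5c* and *Ntn1* passed 2-fold, in opposite directions, and the other members over the floor lay within 2-fold. *Unc5c*, a netrin receptor for repulsion (chr3:141465564-141834924, GRCm38), had 2193 counts in chondrocytes against 79 in dermal fibroblasts. It was 28.5-fold higher in chondrocytes (22.8 to 36.2), the largest fold toward chondrocytes of the 65 members. *Unc5b*, a netrin receptor well known in vessel sprouting, had 2115 and 4330 counts and was 1.99-fold higher in dermal fibroblasts (1.89 to 2.10), just inside the threshold. It passed 2-fold with total counts and with DESeq2 size factors. The Unc5 family as a sum was level, at 4321 and 4431 counts (fold 1.0, 0.960 to 1.04), although *Unc5c* made up 2193 of the former and 79 of the latter. *Unc5a* had 13 and 18 counts, and *Unc5d* had 0 and 4, so that neither was distinguishable between the libraries at this depth.

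On the ligand side, *Ntn1*, the prototype of the netrins (chr11:68209364-68386826, GRCm38), had 325 counts in chondrocytes against 3086 in dermal fibroblasts and was 9.24-fold higher in dermal fibroblasts (8.24 to 10.4). The other netrins had few reads. *Ntn3* had 59 and 34 counts, *Ntn4*, found in basement membranes, had 37 and 57, and *Ntn5* had 2 and 0. Chondrocytes thus had the larger count of the receptor *Unc5c* and dermal fibroblasts the larger count of *Ntn1*. Netrin-1 receptors outside the families, named after their values were seen, also differed in direction. *Neo1* (neogenin) had 5944 and 2302 counts and was 2.65-fold higher in chondrocytes (2.53 to 2.78), whereas *Mcam* had 482 and 1204 counts and was 2.43-fold higher in dermal fibroblasts (2.19 to 2.71). *Dcc* had 1 and 5 counts.

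Both abundant Slits and *Robo2* were higher in dermal fibroblasts. *Slit3* (chr11:35121456-35708507) had 1247 counts in chondrocytes against 10145 in dermal fibroblasts, a 7.92-fold difference toward dermal fibroblasts (7.47 to 8.41). *Slit2* (chr5:47981291-48307735) had 669 and 3782 counts, a 5.5-fold difference in the same direction (5.07 to 5.98). *Slit1*, best known from the nervous system, went the other way with few reads, 105 and 48 counts, and its 2.25-fold difference toward chondrocytes had an interval from 1.58 to 3.23.

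Among the Robo receptors, *Robo1* had 586 and 544 counts and was level (1.11-fold, 0.983 to 1.25). *Robo2*, on the same chromosome (chr16:73891976-75447443) and 844484 bp away, had 36 counts in chondrocytes against 1037 in dermal fibroblasts. It was 28.0-fold higher in dermal fibroblasts (20.1 to 40.3), the largest fold of the 65 members in that direction. *Robo3* had 10 and 5 counts, and its interval of 0.640 to 7.66 spans equality although its fold of 2.05 passed the threshold. *Robo4*, the Robo of endothelium, had 12 and 18 counts, beside 497 and 984 summed counts of the endothelial markers. In these libraries *Robo1* was the only Robo with at least 100 counts in chondrocytes, whereas dermal fibroblasts had both *Robo1* and *Robo2* above that count.

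Among the EphA receptors, *Epha2* held most of the reads in chondrocytes, whereas *Epha4* and *Epha3* held most in dermal fibroblasts. *Epha2* (chr4:141301221-141329384), a receptor also common in epithelia, had 1859 counts in chondrocytes against 144 in dermal fibroblasts and was 13.3-fold higher in chondrocytes (11.2 to 15.8). Keratinocyte markers had 289 and 5119 summed counts, and a part of epithelial cells in the *Epha2* fold was not tested. *Epha8*, a receptor best known from the midbrain, gave 27 counts in chondrocytes against 0. With a floor of 3 counts in place of the 0, its fold toward chondrocytes was 9.24. The counting interval began at 7.02 and had no upper end. *Epha4* had 175 and 484 counts and was 2.69-fold higher in dermal fibroblasts (2.26 to 3.22). *Epha3* (222 and 383 counts) and *Epha7* (71 and 132) lay within 2-fold on the same side, and *Epha5* had 3 and 18 counts, a 5.84-fold difference toward dermal fibroblasts with an interval from 1.71 to 31.0.

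The EphA receptors summed to 2395 counts in chondrocytes against 1198 in dermal fibroblasts, a 2.05-fold difference (1.92 to 2.2). Without *Epha2*, the sum was 536 against 1054 and the direction turned, with a 1.91-fold higher value in dermal fibroblasts (1.72 to 2.13). *Epha1* had 38 and 36 counts, and its annotated exons share 160 bp with *Zyx* on the opposite strand, a gene with 5283 and 6286 counts.

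The EphB receptors leaned toward dermal fibroblasts, with each of the 5 at a fold below 1. *Ephb6*, an Eph protein without kinase activity, had 101 counts in chondrocytes against 525 in dermal fibroblasts and was 5.06-fold higher in dermal fibroblasts (4.08 to 6.33). *Ephb3* had 459 and 1699 counts and was 3.60-fold higher there (3.25 to 4.0). *Ephb2* (1222 and 1618 counts) and *Ephb4*, the venous receptor of ephrin-B2 (979 and 1352 counts), were 1.29-fold and 1.34-fold higher in dermal fibroblasts. *Ephb1* had 5 and 10 counts, and its interval of 0.138 to 1.65 spans equality.

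Of the 8 ephrins, *Efna1* passed 2-fold toward chondrocytes and *Efnb3* toward dermal fibroblasts. *Efna1*, a ligand of EphA2, had 335 counts in chondrocytes against 110 in dermal fibroblasts and was 3.13-fold higher in chondrocytes (2.51 to 3.92). Its neighbours on chromosome 3 lay within 2-fold. *Efna4*, with 60 and 107 counts, leaned toward dermal fibroblasts, and *Efna3*, with 14 and 23, had an interval of 0.297 to 1.27 that spans equality. *Efna5*, with 435 and 789 counts, was 1.77-fold higher in dermal fibroblasts (1.57 to 1.99), and *Efna2* had 93 and 136 counts. *Efnb1*, whose loss disturbs skeletal patterning in mice, had 1261 and 841 counts and was 1.54-fold higher in chondrocytes (1.41 to 1.68). *Efnb2*, the arterial ephrin, had 717 and 945 counts, and *Efnb3* had 9 and 29 (3.14-fold toward dermal fibroblasts, 1.45 to 7.53). All ephrins together gave 2924 and 2980 counts, a fold of 1.01 (0.957 to 1.06).

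Class 3 semaphorins were level as a sum and differed by member. They held 2819 counts in chondrocytes against 2796 in dermal fibroblasts (fold 1.04, 0.982 to 1.09). *Sema3e* (chr5:14025276-14256689), a secreted semaphorin that binds plexin D1 without a neuropilin, had 523 and 69 counts and was 7.79-fold higher in chondrocytes (6.05 to 10.2). *Sema3c* had 998 and 505 counts, and its 2.03-fold difference toward chondrocytes had an interval from 1.82 to 2.26. In the other direction, *Sema3f*, which acts mainly through neuropilin-2, had 225 and 684 counts and was 2.96-fold higher in dermal fibroblasts (2.54 to 3.46), and *Sema3a*, which acts through neuropilin-1, had 215 and 524 counts and was 2.37-fold higher there (2.02 to 2.79). *Sema3d* (549 and 607 counts), *Sema3b* (151 and 286) and *Sema3g* (158 and 121) lay within 2-fold.

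*Sema3d*, *Sema3a* and *Sema3e* follow each other on chromosome 5, with 535868 bp between *Sema3d* and *Sema3a* and 421790 bp between *Sema3a* and *Sema3e*. Their log2 folds were -0.11, -1.25 and 2.96, so that neighbours there did not move together. *Sema3b* and *Sema3f*, 72257 bp apart on chromosome 9, had log2 folds of -0.88 and -1.57.

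Of the 13 membrane semaphorins, *Sema5a* (chr15:32244813-32696341), which carries thrombospondin repeats, differed most, with 246 counts in chondrocytes against 2195 in dermal fibroblasts, an 8.69-fold difference toward dermal fibroblasts (7.61 to 9.95). *Sema4f* had 55 and 191 counts and was 3.38-fold higher there (2.49 to 4.65), and *Sema5b* had 16 and 59 counts. *Sema6b* was the 1 membrane semaphorin over 2-fold higher in chondrocytes, with 184 and 88 counts, and its interval of 1.66 to 2.80 reached below 2-fold. The other 9 lay within 2-fold. Among them, *Sema4c* had 689 and 863 counts, *Sema6a* 400 and 220, and *Sema7a*, the semaphorin with a lipid anchor, 205 and 157.

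Plexins held the most reads of the families, and their sum was nearly level at 18383 and 19948 counts (fold 0.947, 0.928 to 0.966). *Plxnb1* (chr9:109093849-109119915), the receptor of semaphorin 4D, had 2297 counts in chondrocytes against 210 in dermal fibroblasts and was 11.2-fold higher in chondrocytes (9.75 to 13). *Plxnb3* (chrX:73756556-73772510), a receptor of semaphorin 5A, had 18 and 164 counts and was 8.87-fold higher in dermal fibroblasts (5.44 to 15.3). *Plxna4* (122 and 570 counts) and *Plxnc1*, the receptor of semaphorin 7A (95 and 344 counts), were 4.55-fold and 3.53-fold higher in dermal fibroblasts, with intervals of 3.73 to 5.58 and 2.80 to 4.47. The B plexins therefore split, as *Plxnb2* stayed within 2-fold with 8240 and 6227 counts (1.36-fold toward chondrocytes, 1.31 to 1.40).

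The other plexins and both neuropilins lay within 2-fold. *Plxna1* had 4386 and 8580 counts and was 1.90-fold higher in dermal fibroblasts (1.84 to 1.98), and it passed 2-fold only with total counts among the scalings tried. *Plxnd1*, the receptor of semaphorin 3E, had 1692 and 2195 counts, *Plxna2* 905 and 1093, and *Plxna3* 628 and 565. The neuropilins leaned apart, with 2222 and 1602 counts for *Nrp1* (1.42-fold toward chondrocytes, 1.34 to 1.52) and 2915 and 4823 counts for *Nrp2* (1.61-fold toward dermal fibroblasts, 1.54 to 1.69).

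**Figure D2:**
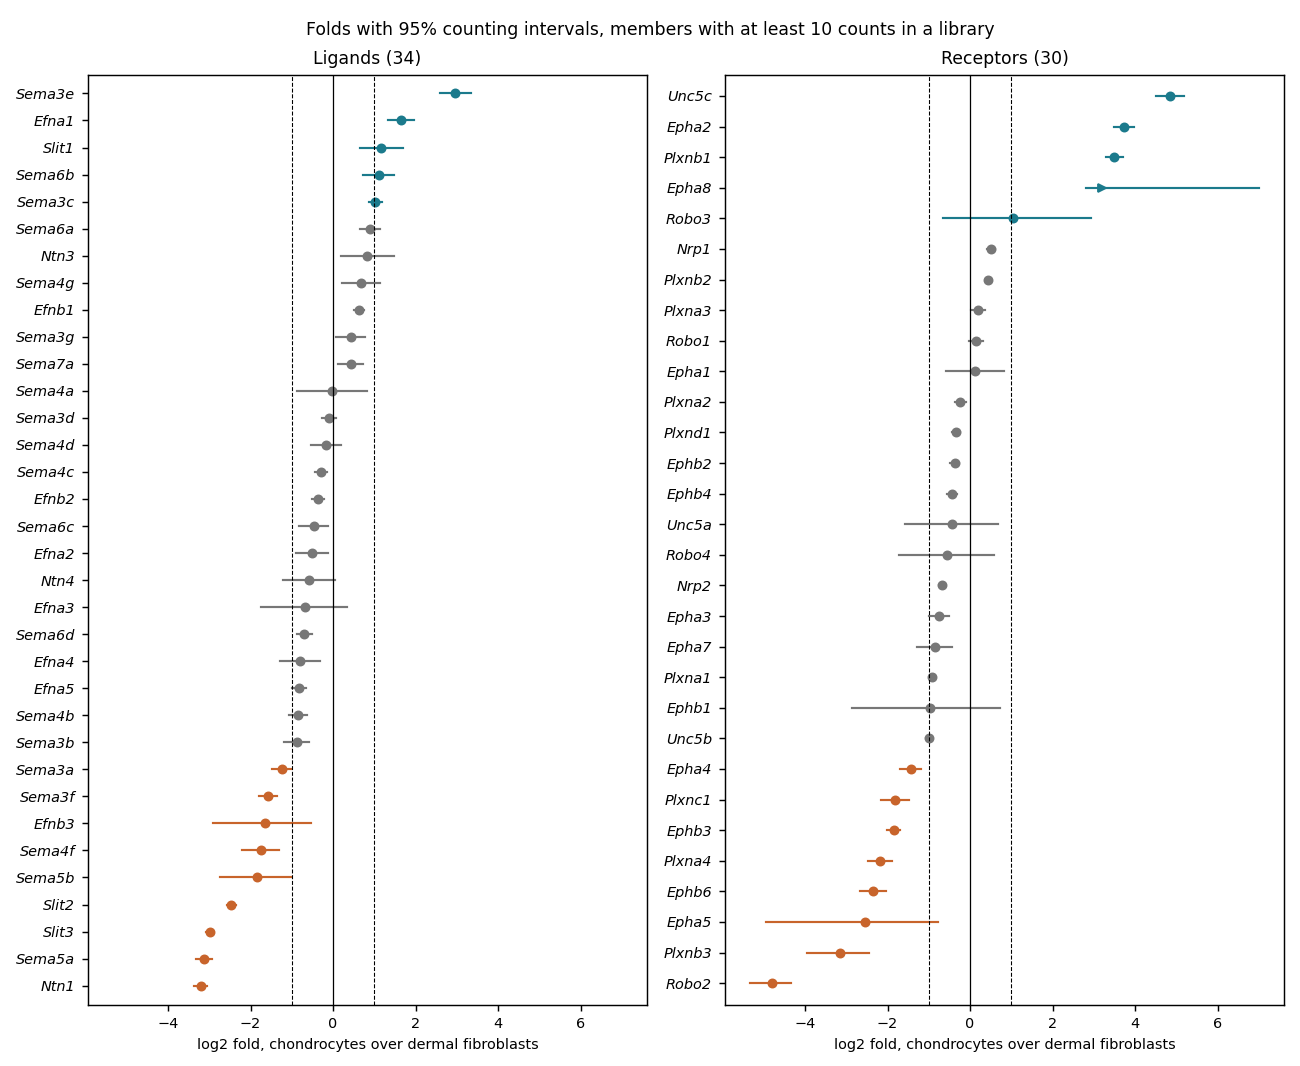
Log2 fold of chondrocytes over dermal fibroblasts (x axis) for the 34 ligands and 30 receptors with at least 10 counts in a library, with 95% counting intervals as lines and 2-fold as dashed lines. Teal marks a fold over 2 toward chondrocytes, orange a fold over 2 toward dermal fibroblasts, and grey the rest. The arrowhead marks a fold set with the floor of 3 counts (*Epha8*, 0 counts in dermal fibroblasts, interval without an upper end). Receptors reach from -4.81 (*Robo2*) to 4.83 (*Unc5c*) and ligands from -3.21 (*Ntn1*) to 2.96 (*Sema3e*).

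Ligands and receptors were then compared as groups. Of 34 ligands over the floor, 5 passed 2-fold toward chondrocytes and 9 toward dermal fibroblasts, and of 31 receptors 5 and 8 did. These were 14.7% and 26.5% of ligands and 16.1% and 25.8% of receptors, beside 12.1% and 15.8% of all genes over the floor. The median log2 fold was -0.49 for ligands and -0.43 for receptors, beside 0.00 for all genes over the floor. The sums differed more than the medians. All ligands together had 11024 counts in chondrocytes against 28277 in dermal fibroblasts, a 2.50-fold difference (2.44 to 2.55), whereas all receptors had 33646 and 38810, a 1.12-fold difference (1.11 to 1.14). The ligand sum rested on few genes, because without the Slits and netrins it was 8580 against 11125, a 1.26-fold difference (1.23 to 1.30). Of 13 secreted ligands over the floor, 3 passed toward chondrocytes and 5 toward dermal fibroblasts, and of 21 membrane-bound ligands 2 and 4 did. Members are not replicates, and these counts were not tested against each other.

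Levels were compared between genes per length, as CPM (TMM-scaled counts in a library of 1000000) per kilobase of exon. In chondrocytes the highest receptor levels were 62.8 for *Plxnb2*, 27.1 for *Plxna1*, 22.2 for *Epha2*, 21.0 for *Nrp1* and 20.2 for *Unc5b*, and the highest ligand levels were 20.4 for *Efnb1* and 11.5 for *Slit3*. In dermal fibroblasts *Slit3* led all 68 members at 90.8, followed by *Plxna1* (51.6), *Plxnb2* (46.2), *Unc5b* (40.2), *Nrp2* (27.6) and *Ntn1* (26.7). Within families the leading member changed between the libraries for the ephrin-A ligands (*Efna1* at 10.2 in chondrocytes, *Efna5* at 10.6 in dermal fibroblasts), the EphA receptors (*Epha2* at 22.2, *Epha4* at 4.15), the class 3 semaphorins (*Sema3c* at 7.80, *Sema3f* at 10.7) and the Robos (*Robo1* at 3.42, *Robo2* at 3.41, close to *Robo1* at 3.10 in dermal fibroblasts). It did not change for the ephrin-B ligands (*Efnb1*), membrane semaphorins (*Sema4c*), Slits (*Slit3*), netrins (*Ntn1*) or Unc5 receptors (*Unc5b*). *Sema4c* led *Sema5a* narrowly in dermal fibroblasts (10.2 and 9.88). The leaders of the EphB receptors and plexins in dermal fibroblasts and of the neuropilins in chondrocytes depended on the gene length used.

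**Figure D3:**
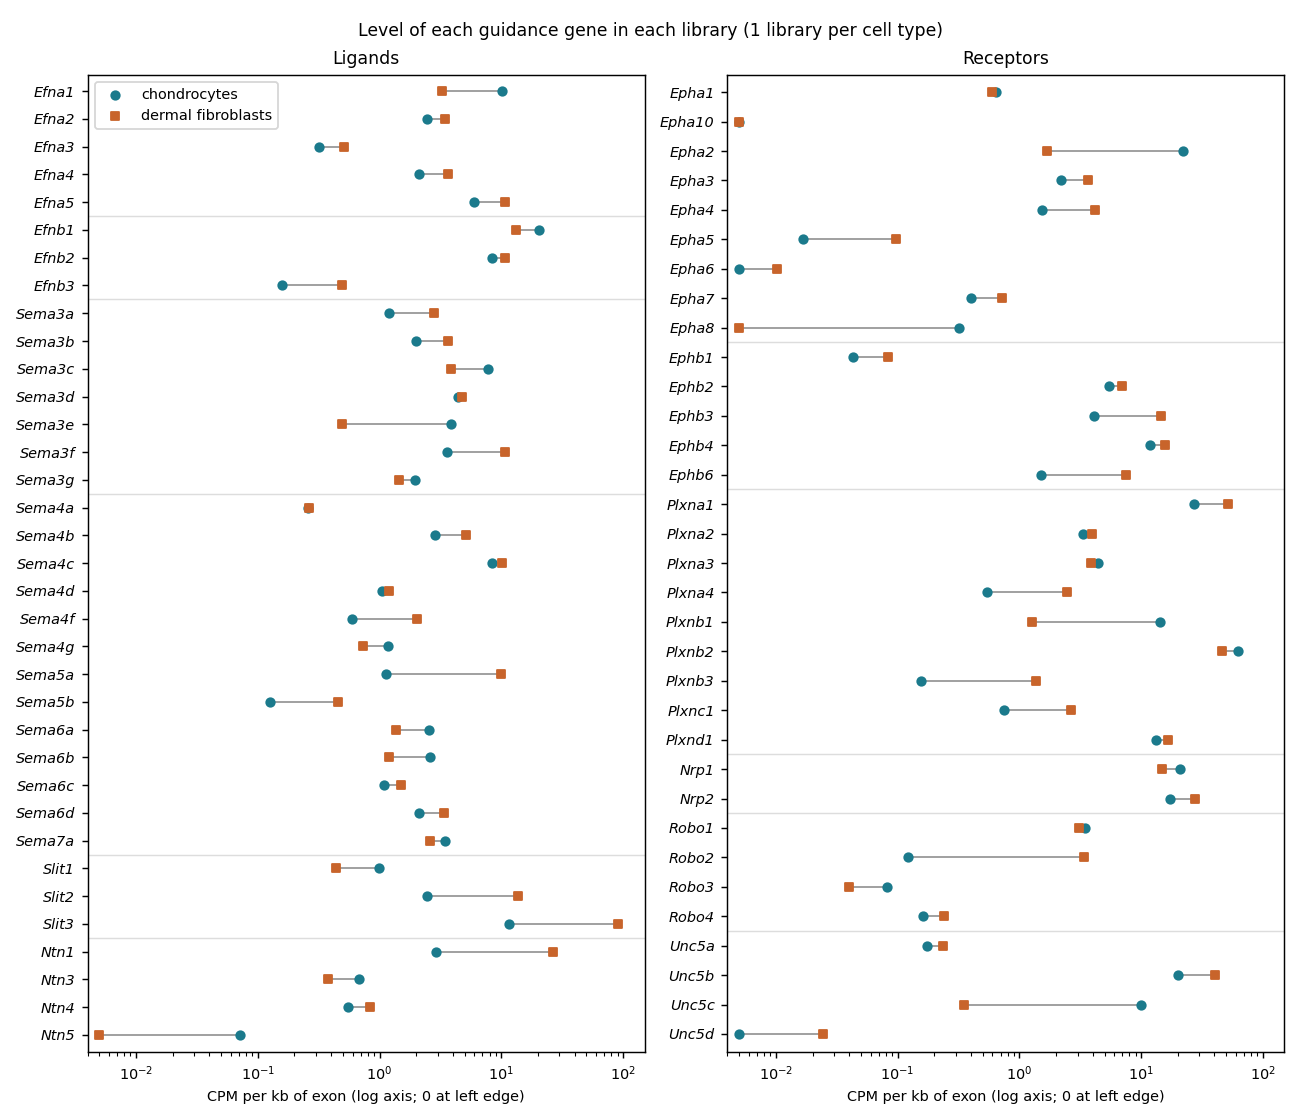
Level of each of the 68 members in CPM per kilobase of exon (log x axis, a value of 0 drawn at the left edge) in chondrocytes (teal circles) and dermal fibroblasts (orange squares), 1 library each, ordered by family. The longest lines among genes with at least 100 counts belong to *Unc5c* and *Robo2*, in opposite directions, and *Slit3* at 90.8 in dermal fibroblasts is the highest point.

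Summed per length, ligand and receptor levels stood in different proportions in the 4 systems. The ratio of ligand to receptor level was 0.998 in chondrocytes and 0.820 in dermal fibroblasts for ephrins and Ephs, and 0.317 and 0.393 for semaphorins against plexins and neuropilins. For Slits against Robos it was 3.94 and 15.5, and for netrins against Unc5 receptors 0.138 and 0.684. This ratio differed by over 2-fold between the libraries for the Slit and netrin systems, and for both it was higher in dermal fibroblasts. The netrin ratio leaves out netrin-1 receptors outside the families, such as *Neo1* (5944 and 2302 counts) and *Mcam* (482 and 1204).

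For 23 textbook combinations of a ligand and a receptor that bind, listed with the counts known, the folds of both sides were set side by side. In *Efna1* and *Epha2*, ligand and receptor were both over 2-fold higher in chondrocytes (log2 folds 1.65 and 3.73). In *Sema5a* and *Plxnb3* (-3.12 and -3.15) and in *Slit2* and *Robo2* (-2.46 and -4.81) both were over 2-fold higher in dermal fibroblasts. *Ntn1* and *Unc5c* were both over 2-fold apart and in opposite directions (-3.21 and 4.83), whereas *Ntn1* and *Unc5b* shared a direction (-3.21 and -0.995). Signs also differed in other combinations. With the receptor within 2-fold, these included *Sema3c* and *Nrp2* (1.02 and -0.69) and *Sema3a* and *Nrp1* (-1.25 and 0.51). With the ligand within 2-fold, they included *Sema6a* and *Plxna4* (0.90 and -2.19), *Efnb1* and *Ephb3* (0.62 and -1.85), and *Sema7a* and *Plxnc1* (0.42 and -1.82). *Slit2* and *Slit3* (-2.46 and -2.99) also bind *Robo1*, which was within 2-fold (0.15). *Sema3e* differed while its receptor *Plxnd1* was within 2-fold (2.96 and -0.34), and *Plxnb1* differed while its ligand *Sema4d*, with 122 and 141 counts, was within 2-fold (3.49 and -0.17).

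**Figure D4:**
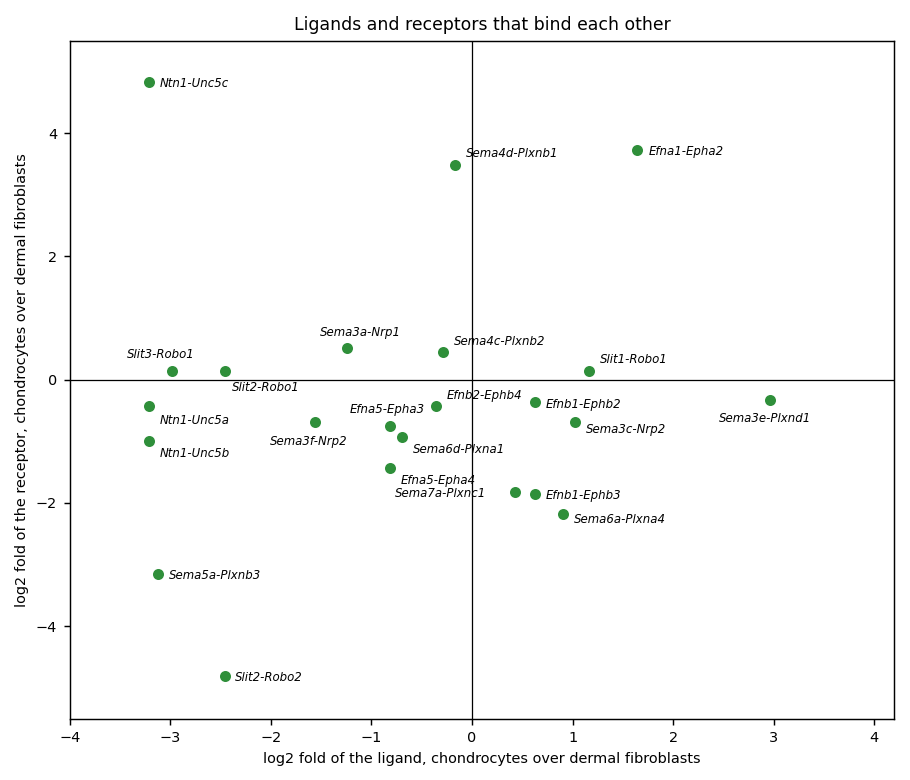
Log2 fold of the ligand (x axis) and of the receptor (y axis), chondrocytes over dermal fibroblasts, for 23 ligand and receptor combinations, each a point, with genes recurring in several points. *Ntn1* and *Unc5c* stand at the upper left, *Efna1* and *Epha2* at the upper right, and *Sema5a* with *Plxnb3* and *Slit2* with *Robo2* at the lower left.

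Known partners of these receptors, inside the cell or on its surface, were also counted. Of all 15616 genes over the floor, 11261 lay within 2-fold, 12.1% passed toward chondrocytes and 15.8% toward dermal fibroblasts, and the partner lists are read beside these shares. Of 23 Eph partners, 4 were over 2-fold higher in chondrocytes and 0 in dermal fibroblasts, with a median log2 fold of -0.08. *Ngef* (ephexin), a RhoA exchange factor bound by EphA receptors, had 322 and 26 counts and was 12.7-fold higher in chondrocytes (8.52 to 19.8). Of 24 semaphorin and plexin partners over the floor, 2 were higher in chondrocytes and 5 in dermal fibroblasts, with a median of -0.60. *Rnd1*, a small GTPase that binds plexins, had 441 and 39 counts and was 11.6-fold higher in chondrocytes (8.36 to 16.6). *Mical2*, an actin-oxidising enzyme, had 808 and 3605 counts and was 4.34-fold higher in dermal fibroblasts (4.02 to 4.69), and *Dpysl5*, a collapsin response mediator, had 25 and 134 counts and was 5.22-fold higher there (3.39 to 8.35).

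Of 19 Slit and Robo partners, 2 passed in each direction, with a median of 0.07. *Flrt3*, a membrane protein that binds Robo1 and Unc5 receptors, had 39 and 334 counts and was 8.34-fold higher in dermal fibroblasts (5.97 to 11.9). Of 17 further netrin receptors and co-ligands over the floor, 2 passed toward chondrocytes and 3 toward dermal fibroblasts, with a median of -0.28. The VEGF ligands and receptors, which share the neuropilins as co-receptors, passed toward dermal fibroblasts in 6 of 8 cases and toward chondrocytes in 0, with a median of -1.80. *Flt1* had 97 and 446 counts and was 4.48-fold higher in dermal fibroblasts (3.59 to 5.64). Of 10 endothelial markers, 7 were over 2-fold higher there and 1, *Erg* (159 and 20 counts), in chondrocytes. A part of endothelial cells in the *Flt1* fold was not tested. The median over all genes was 0.00.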

How the data were processed

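RNA-Seq counts of 1 chondrocyte library and 1 dermal fibroblast library were analysed. Per the labels and methods, reads of stranded mRNA libraries were base-called with CASAVA 1.8.2 and mapped to mm10 with TopHat2 2.0.13, Bowtie2 2.2.3 and SAMtools 0.1.19, and the authors deposited raw read counts per gene symbol. The counting program, its annotation and its strand setting are not given in the sources used here, so that reads of overlapping genes on opposite strands could not be told apart. The counts were read from the 24421 rows, of which 27 hold a date in place of a symbol.

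Counts were scaled by TMM factors (edgeR 4.0.16, R 4.3.3), which were 0.954 for chondrocytes and 1.05 for dermal fibroblasts. Counts under 3 were set to 3, folds over 2 were counted, and Clopper-Pearson intervals were computed with scipy 1.17.1, numpy 2.4.6 and pandas 2.3.3 in Python 3.11.15 and drawn with matplotlib 3.10.9. Without molecular identifiers, reads need not be independent molecules, and the intervals leave that out. A depth of 18788599 and 17563724 counts set the precision. The design asked for no test across genes, as each group had 1 library. The calculation was tested on simulated counts.

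Named members had a fold over 2 and at least 100 counts, or were the most abundant ligand or receptor of a system. Partner genes were named at a fold over 4 and at least 100 counts, except the netrin-1 receptors *Neo1*, *Mcam* and *Dcc*, which were added after their values were seen. Other members are given by their counts. Members, gene lists and ligand and receptor combinations were chosen with earlier results of these data known. Exon lengths are unions of GENCODE vM1 exons (NCBIM37) matched by symbol for 68 of 68 members. Gene positions and promoter sequences are from RefSeq in GRCm38.p6, the build named mm10 elsewhere. ATAC-Seq, ChIP-Seq and qPCR were not analysed here. Alternatives were other scalings (including DESeq2 1.42.0 size factors), floors, filters and thresholds.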

Additional observations from a re-analysis of the deposited data

How the results depend on the processing

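No paired analysis was possible because 1 chondrocyte library met 1 dermal fibroblast library. With a fold over 4, 5 members (1 of them a ligand) were higher in chondrocytes and 9 (4 ligands and 5 receptors) in dermal fibroblasts, which a stricter threshold brings about by construction. With the counting interval wholly beyond 2-fold, 6 members (2 ligands) were higher in chondrocytes. With total counts, 3 ligands were higher in chondrocytes. The other 84 of 92 summary values stayed within 1.5 times the main count or within the medians of the counting bounds. Relative to TMM, total counts moved every log2 fold by -0.14 and *Actb* moved it by 0.12. The median log2 fold ranged from -0.63 (total counts) to -0.37 (*Actb*) for ligands and from -0.57 to -0.31 for receptors under the same settings.

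For 29 named members under 8 scalings, floors and a pseudocount, 0 of 232 folds changed direction and 13 left the counting interval of the main value. *Sema3c* and *Sema6b* fell below 2-fold with total counts, at 1.85 and 1.95. With the longest protein-coding transcript as the length, an alternative chosen after seeing the data, the leading member was the same in 21 of 24 families and libraries. The exceptions were *Ephb3* for *Ephb4* and *Plxnb2* for *Plxna1* in dermal fibroblasts and *Nrp2* for *Nrp1* in chondrocytes. Depth limits the members with few reads, of which 17 of 68 had under 100 counts in both libraries.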
